A study of Mus musculus with 10 samples.

Results

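CpG-dense tiles that were methylated in sperm were followed from sperm to the zygote and the blastocyst, with and without maternal Tet3. A tile here is a fixed window of 100 bp on an autosome. A tile was taken when it held at least 6 distinct cytosine positions over both sperm libraries, at least 10 counts and at least 80% methylation in each of them, and at least 10 counts in each embryo group after its replicates were summed. The tiles were thus chosen by their sperm methylation, and no difference between sperm and embryos is tested. The rule found 146 tiles among 183899 autosomal tiles with any count. Of 30875 tiles that passed the coverage rules, 4543 held 6 or more positions, and 4277 of these were at 20% or less in both sperm libraries. Methylated tiles were thus a small part of the dense tiles. They were compared with 11066 sparser tiles chosen in the same way on sperm but holding 1 to 5 positions.

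The assay was reduced representation bisulfite sequencing (RRBS), in which DNA is cut with MspI and CpG-rich fragments are read after bisulfite treatment. The 10 libraries formed 5 groups of 2 biological duplicates. CKO zygotes and CKO blastocysts have the genotype maternal Tet3 KO in the labels, and the corresponding controls were WT zygotes and WT blastocysts. All embryos were C57BL/6J x CAST/EiJ, made by in vitro fertilisation of eggs of superovulated females with CAST/EiJ sperm, and the sperm group was WT CAST/EiJ sperm. Zygotes were collected 13 h after fertilisation, with 40 to 50 in a library, and blastocysts at 96 h, with 4 in a library, so every embryo value is a mean over pooled embryos. How the maternal allele was deleted is not given in the sources used here.

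Most CpG-dense DNA in the mouse is kept free of methylation, and dense sequence that carries methylation in sperm is the exception. After fertilisation the paternal genome loses much of its methylation, partly through oxidation of 5-methylcytosine and partly through dilution when DNA is copied without the mark being restored. Tet3, a dioxygenase that oxidises 5-methylcytosine and is stored in the egg, acts in the first of these routes. Bisulfite treatment leaves 5-methylcytosine and 5-hydroxymethylcytosine alike unconverted, so oxidation to 5-hydroxymethylcytosine does not lower the values given here.

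The number of cytosine positions per tile was 6 in 84 tiles, 7 in 34 and 8 or more in 28, with a maximum of 11. The files list the cytosines of both strands, so a CpG can count as a pair of positions. With adjacent positions merged, the tiles held 3 to 11 distinct sites (median 5). Of the 146 tiles, 46 held 3 or 4 sites, 39 held 5 and 61 held 6 or more, so for many of them the label CpG-dense rests on both strands being listed. The sparser tiles were also set by positions and not by distinct sites, so the classes can overlap in their number of sites. They lay on all 19 autosomes, in 145 separate regions. The only adjacent pair was chr5:143193601-143193700 and the tile after it (build mm9, as are all coordinates here). Only 1 of the 146 tiles (0.685%) lay within 1000 bp of a sperm-unmethylated tile, against 208 of the 11066 sparser tiles (1.88%). An adjacent sperm-methylated tile was present for 24 tiles (16.4%), against 2220 of the sparser ones (20.1%). No annotation of build mm9 was at hand, so the tiles are given by position only, without gene features or sequence.

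Libraries held 1005492 to 2535229 counts in total, and a position in them had a median of 4 to 9. Between 134 and 144 of the 146 tiles had at least 5 counts in a given embryo library, and 102 had them in all 8 embryo libraries. Means below are over these 102 tiles. The median count per tile was 37.5 to 54.5 in embryo libraries, and 103 and 96.5 in sperm. A read that spans several positions is counted at each of them, so tile counts are not numbers of reads. The deepest single position of a tile had a median of 8 to 13 counts in embryo libraries, which is nearer to the number of reads behind a value. The names of the deposited embryo tables carry the father's strain, but the sources used here do not state an assignment of reads to either parent. An embryo level may therefore stand for the paternal copy alone or for both copies.

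Methylation of the CpG-dense tiles was lower at each later stage and was higher in CKO than in WT embryos at both stages. The tiles averaged 93.1% and 92.8% in the sperm libraries, 72.2% and 69.8% in CKO zygotes, 63.9% and 64.7% in WT zygotes, 46.0% and 43.3% in CKO blastocysts, and 32.7% and 30.9% in WT blastocysts. Both CKO libraries lay above both WT libraries at each stage, and the stages did not overlap within a genotype. The group means were 71.0% ± 1.67 in CKO and 64.3% ± 0.591 in WT zygotes, and 44.7% ± 1.90 in CKO against 31.8% ± 1.26 in WT blastocysts (SD, n = 2 libraries each). Sperm was at 92.9% ± 0.202 (SD, n = 2), a level that the choice of tiles fixes. The CpG-dense tiles at 20% or less in sperm averaged 1.66% in CKO and 1.58% in WT zygotes, and 1.00% in CKO and 0.968% in WT blastocysts, over 2493 tiles.

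**Figure D1:**
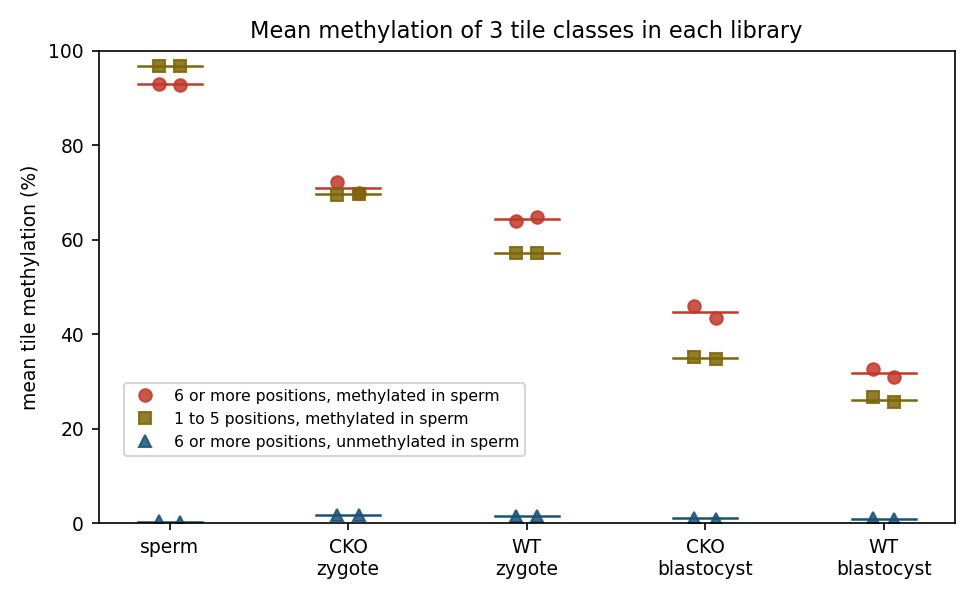
Mean methylation in percent (vertical axis) of 102 CpG-dense sperm-methylated tiles (circles), 4676 sparser sperm-methylated tiles (squares) and 2493 CpG-dense sperm-unmethylated tiles (triangles) in each library. Each point is a library and each bar a group mean over 2 libraries. The CpG-dense sperm-methylated tiles sit at 43.3% and 46.0% in CKO blastocysts, above 30.9% and 32.7% in WT blastocysts.

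In zygotes, the comparison asks whether the level of these tiles, on the paternal copy or on both copies, differs with maternal Tet3 KO. CKO zygotes were 6.74 points above WT zygotes (SD of the difference 1.77). A two-sided exact permutation test gave p = 0.3333. With 2 against 2 libraries no smaller p is possible, so this test cannot pass 0.05. In blastocysts the difference was 12.9 points (SD 2.28), with the same exact permutation p of 0.3333. Averaged over both stages, with genotype permuted within stage, CKO exceeded WT by 9.80 points (SD 1.44, exact two-sided permutation p = 0.056, the smallest this design allows). Both differences were larger than the spread between replicates. The zygote value depended on how tiles were drawn, at 11.8 points with the tile grid shifted by 50 bp and 12 points over the 23 covered tiles with 8 or more positions. It was 4.55 points where sperm methylation had to reach 90%.

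The spread of levels among the tiles differed by stage. In zygotes, tiles at 80% or more made up 39.7% ± 0.693 of the tiles in CKO and 28.4% ± 1.39 in WT (SD, n = 2 each; exact permutation p = 0.3333). Tiles at 20% or less made up 4.90% ± 2.77 in CKO and 5.88% ± 4.16 in WT zygotes (exact permutation p = 1), a difference within the spread between replicates. With the tile grid shifted by 50 bp that difference was -12.6 points. In blastocysts it was the low end that separated. Tiles at 20% or less made up 17.6% ± 1.39 in CKO and 40.2% ± 1.39 in WT blastocysts, a difference of -22.5 points (SD 1.96, n = 2 each, exact permutation p = 0.3333). It was -14.3 points with the shifted grid and -36.1 with at least 10 counts at the deepest position. Tiles at 80% or more made up 7.35% ± 2.08 in CKO and 5.39% ± 2.08 in WT blastocysts (exact permutation p = 0.667), which overlap.

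**Figure D2:**
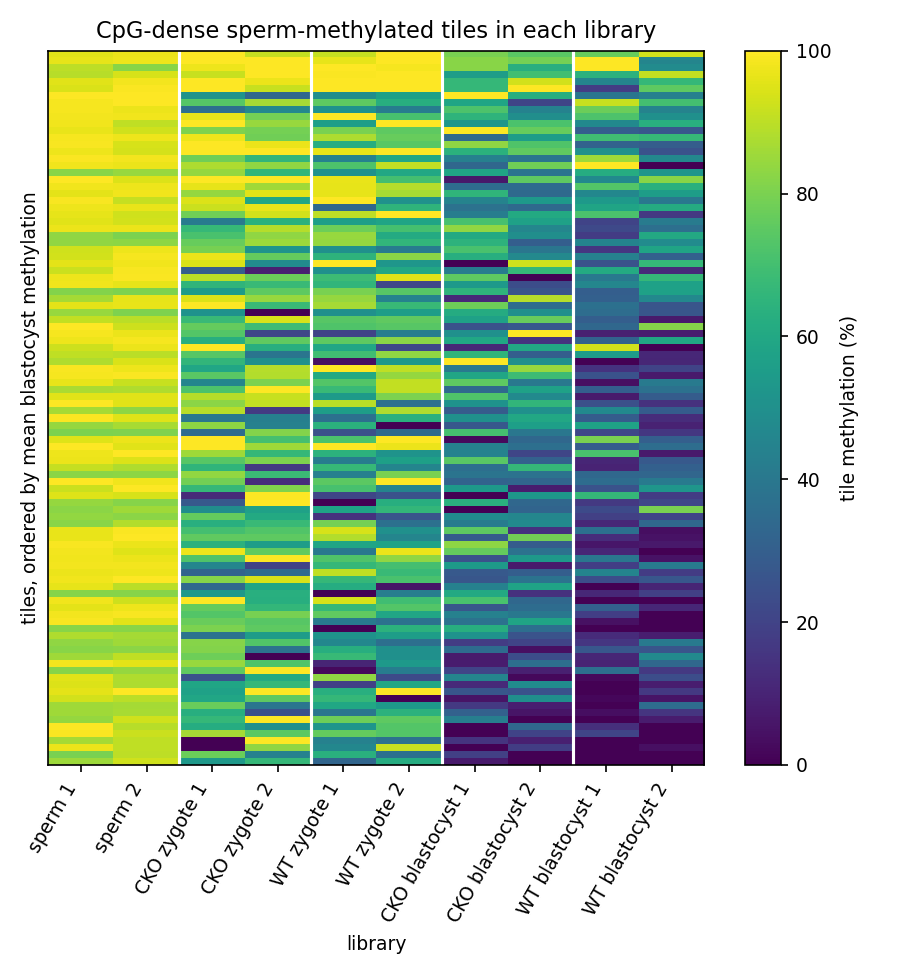
Methylation of 102 CpG-dense sperm-methylated tiles (rows, ordered by their mean over the 4 blastocyst libraries) in the 10 libraries (columns), coloured from 0 to 100%. Dark cells are most frequent in the WT blastocyst libraries, where 40.2% of tiles were at 20% or less, against 17.6% in CKO blastocysts.

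Tile by tile, the zygote difference was a shift of many tiles and not of all. The mean was higher in CKO zygotes at 64 of 102 tiles and lower at 38, with a median difference of 5.15 points (interquartile range -4.62 to 18.7). Both CKO libraries lay above both WT libraries at 20 tiles (19.6%) and below both at 5 (4.90%). Among the 4676 sparser tiles these shares were 27.6% and 7.7%, and among all 14811 covered autosomal tiles 14.1% and 4.53%. The CpG-dense tiles were therefore not more often separated in zygotes than the sparser ones.

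The widest separation in zygotes was 65.4 points. Tile chr2:144219201-144219300 had 75.5% and 100% in the CKO zygote libraries, against 2.56% and 42.1% in the WT zygote libraries, with only 3 counts at the deepest position in the second CKO library. In blastocysts the same tile overlapped, at 20.3% and 8.89% in CKO and 36.6% and 16.7% in WT. At chr9:64060401-64060500, CKO zygotes had 84.7% and 72.3% and WT zygotes 10.2% and 53.8%, and blastocysts again overlapped. These tiles were apart in zygotes and not at the later stage. The change in their genotype difference between stages did not pass edgeR's test (unadjusted p = 0.01576 and 0.1837 in the order given, adjusted p = 1 for each). Tile chr2:104032601-104032700 was apart at both stages, with 76.2% and 60.7% in CKO against 14.3% and 26.3% in WT zygotes, and 48.8% and 45.8% in CKO against 19.05% and 20.4% in WT blastocysts. At chr4:136979101-136979200 the zygote difference of 45.5 points rested on few reads, with 1 count at the deepest position in the second CKO library and 3 in the first WT library. One tile of the 5 with the widest separation went the other way. Tile chr4:116949401-116949500 had 31.8% and 35.2% in CKO zygotes, against 90.5% and 67.8% in WT zygotes.

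In a fit across all tiles, no single tile was called between genotypes. EdgeR's quasi-likelihood test was run on the methylated and unmethylated counts of 7546 tiles with at least 10 counts in each embryo library, 76 of them CpG-dense sperm-methylated tiles. In zygotes it called 0 of the 76 at a Benjamini-Hochberg adjusted p below 0.05 (0.0% of all tiles), and limma also called 0. At an unadjusted p below 0.05, 8 of 76 were higher in CKO zygotes and 2 lower, against 8.75% higher and 0.831% lower of the sparser tiles, and 3.46% and 0.596% of all tiles. In blastocysts edgeR and limma again called 0 of 76 (0.0% of all tiles called by edgeR). At an unadjusted p below 0.05, 13 of 76 were higher in CKO blastocysts (17.1%) and 0 lower, against 6.15% and 0.665% of the sparser tiles, and 2.28% and 0.437% of all tiles. That excess over the sparser tiles depended on the test: with edgeR's likelihood ratio test the shares higher in CKO blastocysts were 9.21% of the CpG-dense and 12.2% of the sparser tiles, with a common dispersion 2.63% and 2.88%, and with limma 19.7% and 11.2%. The tiles in this fit held more counts than the sparser ones, with library medians of 50.5 to 83 counts against 24 to 37, and the part of depth in these shares was not tested.

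The smallest p in zygotes belonged to chr5:122022701-122022800, with 8 to 42 counts at its deepest position in the embryo libraries. It had 100% and 97.2% in CKO zygotes, against 62.2% and 74.6% in WT zygotes (edgeR unadjusted p = 0.0003396, adjusted p = 0.364). In blastocysts it had 83.3% and 72.3% in CKO, against 31.4% and 29.6% in WT. This tile was therefore near its sperm level of 98.9% and 93.9% in CKO zygotes, and its groups were apart at both stages.

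In blastocysts more of these tiles were separated, a difference between stages that was not tested by itself and whose size depended on the tile set. The mean was higher in CKO at 71 of 102 tiles and lower at 31, with a median difference of 9.98 points (interquartile range -3.50 to 32.0). Of the 4676 sparser tiles, 2973 were higher and 1608 lower, with a median difference of 9.01 points. Both CKO libraries lay above both WT libraries at 36 tiles (35.3%) and below both at 7 (6.86%). The sparser tiles gave 26.5% and 10.1%, and all covered tiles 13.1% and 5.98%. A test of the difference between these shares was not made.

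**Figure D3:**
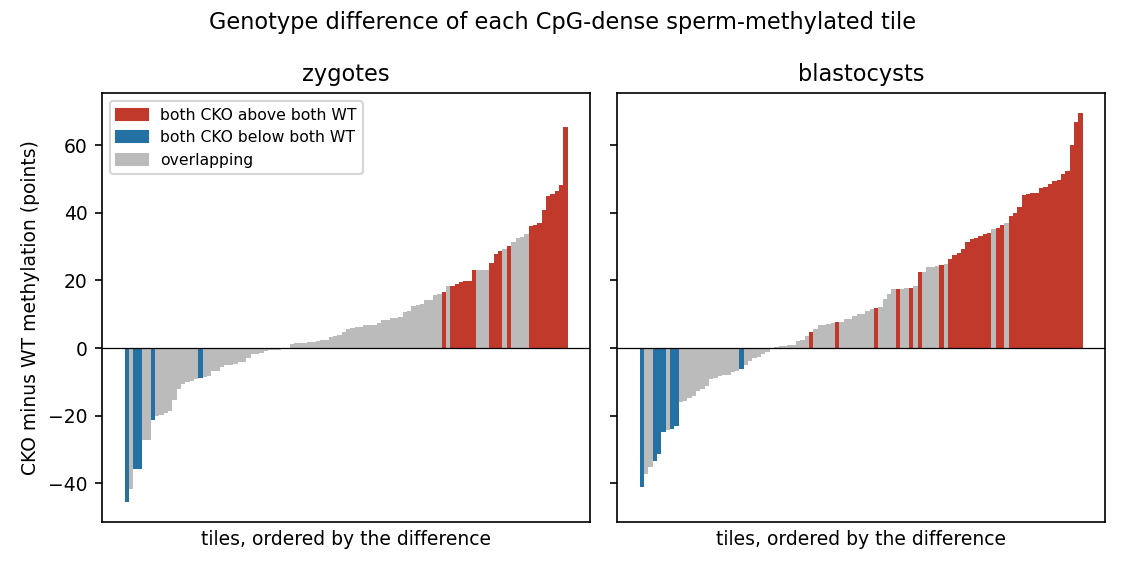
CKO minus WT methylation in percentage points (vertical axis) of each of 102 CpG-dense sperm-methylated tiles, ordered by size, in zygotes (left) and blastocysts (right). Red bars are tiles with both CKO libraries above both WT libraries (20 in zygotes, 36 in blastocysts), blue bars the reverse (5 and 7), and grey bars tiles whose libraries overlap.

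Several of the tiles with the widest blastocyst separation were alike in zygotes. Tile chr5:9408201-9408300 had 80.6% and 79.2% in CKO and 79.7% and 75.0% in WT zygotes, then 100% and 76.9% in CKO and 30.0% and 27.0% in WT blastocysts. The first CKO blastocyst library had only 2 counts at the deepest position there. Tile chr10:60270801-60270900 had 100% and 62.5% in CKO and 93.8% and 69.2% in WT zygotes, then 71.4% and 33.3% in CKO blastocysts, against 0 of 18 and 0 of 57 counts in WT blastocysts. With 13 and 22 counts at the deepest position, these zeros allow up to 23.1% and 13.6%, for counting error only. At these tiles the zygote groups overlapped and the blastocyst groups did not.

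Tile chr1:186919101-186919200 had 76.5% and 37.5% in CKO blastocysts, against 10.8% and 0% of 74 counts in WT blastocysts, and up to 7.14% is allowed by the 42 counts at its deepest position. Tile chr18:75418501-75418600 had 100% and 50.0% in CKO against 0% and 10.9% in WT blastocysts, with 3 counts at the deepest position behind the value of 100%. Tile chr7:105501001-105501100 had 50.0% and 100% in CKO, from 8 and 5 counts, against 8.70% and 7.84% in WT blastocysts. Extreme CKO values at these last tiles thus came from few reads.

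The smallest p in blastocysts belonged to chr4:57275501-57275600, with 83.1% and 29.2% in CKO against 5.95% and 6.73% in WT (edgeR unadjusted p = 0.0004737, adjusted p = 0.841). Its zygote levels were 64.3% and 55.8% in CKO and 58.8% and 58.1% in WT, and these overlap. Next came chr4:117357601-117357700, with 5.33% and 49.7% in CKO against 1.67% and 5.38% in WT blastocysts. There the lower CKO library fell inside the WT range.

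Over both stages, the mean was higher in CKO at 46 of 102 tiles in zygotes and blastocysts alike, at 18 in zygotes alone, at 25 in blastocysts alone and at 13 at neither stage. At 7 tiles all CKO libraries lay above all WT libraries at both stages. By stage, this held at 19.6% of the 102 tiles in zygotes and 35.3% in blastocysts, so some tiles would meet it at both stages by coincidence. Neither the 7 nor the 46 was set against a count over the sparser or all tiles, so neither is read as an excess. Besides the tiles on chromosomes 2, 4 and 5 given above, the 7 tiles included chr9:110363501-110363600, chr10:89109701-89109800, chr10:98735901-98736000 and chr11:119238501-119238600, named here after their values were seen. The first of them had 77.3% and 73.9% in CKO against 41.3% and 37.3% in WT zygotes, and 37.9% and 58.3% in CKO against 4.44% and 0% of 63 counts in WT blastocysts, where 21 counts at the deepest position allow up to 14.3%. Tile chr10:89109701-89109800 had 89.3% and 91.8% in CKO against 54.5% and 80.4% in WT zygotes, and 72.5% and 47.4% in CKO against 7.41% and 29.1% in WT blastocysts. At both of these tiles the WT blastocyst libraries lay further below sperm than the CKO ones.

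The genotype difference of the CpG-dense tiles was 6.12 points larger in blastocysts than in zygotes (SE 2.04 from the 8 libraries). That increase depended on the tile set. It was 1.76 points with each library over its own covered tiles, 2.80 with at least 5 counts at the deepest position of each tile, and -0.572 with the tile grid shifted by 50 bp. In the fit across tiles, edgeR's quasi-likelihood test of this stage change called 0 of the 76 tiles (1 of 7546 in all, 0.0133%, lower in blastocysts), and limma called 0. Unadjusted, 6 of the 76 were higher and 4 lower at p below 0.05, against 1.01% and 1.21% of all tiles and 2.44% and 2.71% of the sparser ones.

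The sparser tiles took another course. They averaged 69.6% ± 0.0783 in CKO and 57.2% ± 0.0434 in WT zygotes, and 35.0% ± 0.230 in CKO against 26.1% ± 0.845 in WT blastocysts (4676 tiles, SD, n = 2 each). CKO zygotes exceeded WT zygotes by 12.4 points there, and CKO blastocysts exceeded WT blastocysts by 8.86. The CpG-dense tiles were above them in all 8 embryo libraries although lower in sperm (92.9% against 96.7%). The excess was 2.64 and 0.171 points in the CKO zygote libraries and 6.66 and 7.56 in the WT zygote libraries. In blastocysts it was 10.9 and 8.49 points in CKO libraries and 5.97 and 5.39 in WT libraries. The order of the genotypes thus turned round between the stages, with the excess smaller in CKO zygotes and larger in CKO blastocysts.

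The difference between the classes was tested on these per-library values. The genotype difference of the CpG-dense tiles minus that of the sparser tiles was -5.71 points for zygotes (SD 1.86) and 4.00 points for blastocysts (SD 1.72), each with an exact permutation p of 0.3333, the smallest possible with n = 2 libraries a group. It changed by 9.71 points between the stages (SE 1.79). The zygote value shrank to -0.389 points with the shifted grid and to -0.444 with 8 or more positions, and the blastocyst value to 2.37 points with each library over its own tiles. Both values kept their sign under the settings tried, each library left out included, and ranged from -7.61 to -0.389 in zygotes and from 2.37 to 9.26 in blastocysts.

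Set out by the number of cytosine positions, blastocyst methylation tended to be higher in tiles with more positions. Adjacent positions were not merged here, so the bins do not give distinct sites. The part of both strands being listed in this trend was not tested. CKO blastocysts averaged 33.9%, 35.1%, 36.6%, 38.0% and 39.4% over tiles with 1, 2, 3, 4 and 5 positions, and 44.1%, 46.1% and 44.2% over tiles with 6, 7 and 8 to 11. WT blastocysts averaged 25.2%, 26.0%, 27.3%, 29.8% and 31.1%, then 28.3%, 41.1% and 28.3%. The means followed the number of positions up to 5 in both genotypes, and beyond that the WT values went up and down over bins of 51, 28 and 23 tiles. Over tiles with at least 5 counts at the deepest position, WT blastocysts averaged 26.7% with 2 positions and 25.8% with 3, and CKO blastocysts 42.2% with 5 and 37.9% with 8 to 11, so the order did not hold throughout. In sperm the same bins ran the other way, at 96.9% with 1 position and 92.4% with 8 to 11. The zygote difference between genotypes was 11.6 to 14.0 points over bins of 1 to 5 positions, and 3.77, 7.82 and 12 points over those of 6, 7 and 8 to 11. It did not fall steadily with the number of positions.

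**Figure D4:**
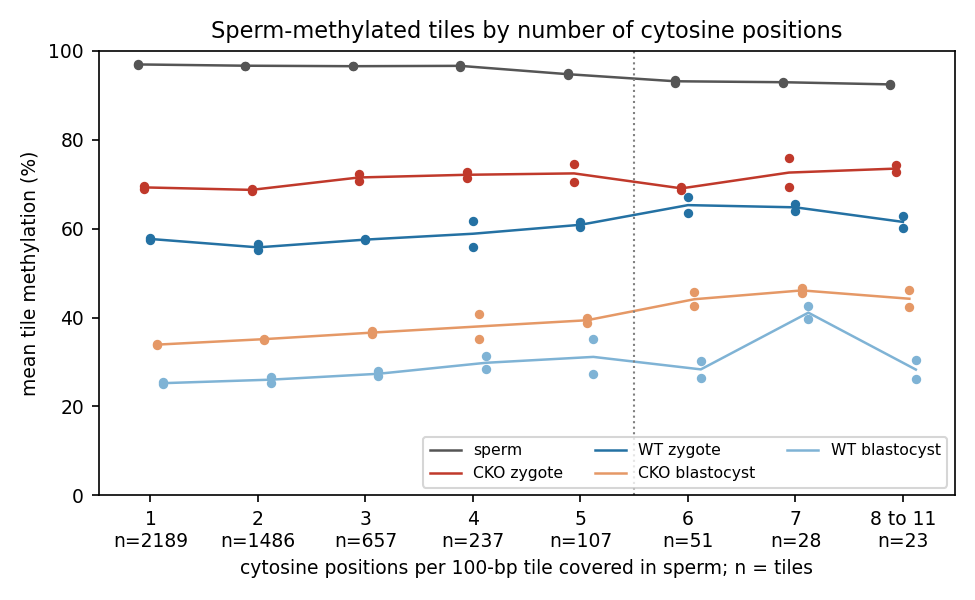
Mean methylation in percent (vertical axis) of sperm-methylated tiles by the number of cytosine positions covered in sperm (horizontal axis, with the number of tiles). Points are libraries and lines join group means of 2 libraries, and the dotted line marks the limit of 6 positions. Blastocyst levels are higher at 5 positions (39.4% in CKO, 31.1% in WT) than at 1 (33.9% and 25.2%).

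From zygote to blastocyst, the CpG-dense tiles fell by 26.3 points in CKO (SD 2.53) and by 32.5 points in WT (SD 1.39), each with an exact permutation p of 0.3333 for 2 against 2 libraries. Blastocysts kept 62.9% of the zygote level in CKO and 49.5% in WT. For the sparser tiles these shares were 50.3% and 45.7%. The mean was lower in blastocysts at 91 of 102 tiles in CKO and at 92 in WT, and at 4183 and 4044 of the 4676 sparser tiles. Both blastocyst libraries lay below both zygote libraries at 60 tiles in CKO (58.8%, against 58.4% of the sparser tiles and 28.6% of all) and at 65 in WT (63.7%, against 51.4% and 24.6%). They lay above both at 3 tiles in CKO (2.94%, against 1.6% of the sparser tiles and 1.75% of all) and at 0 in WT (against 2.29% and 2.26%).

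Single tiles passed the test for this fall between stages, but only with some of the tests run. With edgeR's quasi-likelihood test, 4 of 76 tiles were called lower in CKO blastocysts than in CKO zygotes (5.26%, against 2.05% of the sparser and 0.716% of all tiles), and 6 were called lower in WT blastocysts (7.89%, against 1.16% and 0.411%). Limma called 0 in each, and so did the quasi-likelihood test with a common dispersion in place of 0. At an unadjusted p below 0.05, 26 of 76 were lower in CKO (34.2%, against 29.8% of the sparser and 10.3% of all tiles) and 38 in WT (50.0%, against 27.0% and 9.06%). None was higher in WT blastocysts at that level, against 0.0554% of the sparser and 0.331% of all tiles, and none in CKO, against 0.0% and 0.159%. Against the sparser tiles, these shares too depended on the test. With the likelihood ratio test, the unadjusted shares lower in blastocysts were 23.7% of the CpG-dense and 32.4% of the sparser tiles in CKO, and 32.9% and 32.7% in WT. With a common dispersion they were 5.26% and 11.6% in CKO, and 11.8% and 11.9% in WT. The calls themselves made up 2.63% and 6.48% in CKO with the likelihood ratio test, and 9.21% and 7.59% in WT. The calls also depended on single libraries. The count in WT was 0 without WT blastocyst replicate 1 and 1 without WT blastocyst replicate 2 or WT zygote replicate 1. The count in CKO was 0 without any 1 of the CKO libraries or without WT blastocyst replicate 2, and 1 without WT blastocyst replicate 1.

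The tile called in both genotypes was chr7:52632101-52632200, with 9 to 57 counts at its deepest position in the embryo libraries. It had 65.2% and 34.3% in CKO blastocysts against 84.2% and 95.4% in CKO zygotes (edgeR adjusted p = 0.0359), and 46.2% and 55.6% in WT blastocysts against 96.2% and 87.0% in WT zygotes (edgeR adjusted p = 0.000418). The genotypes overlapped at both stages there.

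Of the other tiles called in WT, chr10:60270801-60270900 (edgeR adjusted p = 0.00563), chr1:186919101-186919200 (0.0256), chr4:57275501-57275600 (0.0244) and chr4:117357601-117357700 (0.0192) were also among those named above for blastocyst separation or a small p. The last had 66.5% and 0% of 50 counts in WT zygotes, so its call came from replicates that were far apart, and without WT zygote replicate 1 its direction reversed. The remaining one, chr17:27177301-27177400, had 17.9% and 75.0% in WT blastocysts against 100% and 100% in WT zygotes (edgeR adjusted p = 0.00411), and 66.7% and 100% in CKO blastocysts.

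In CKO, chr10:9545101-9545200 had 0% of 27 counts and 20.0% in CKO blastocysts against 86.4% and 74.8% in CKO zygotes (edgeR adjusted p = 0.0480). In WT it had 20.5% and 0% of 12 counts in blastocysts against 76.2% and 73.3% in zygotes, and the genotypes overlapped in blastocysts. Tile chr19:28564101-28564200 had 35.3% and 34.8% in CKO blastocysts against 96.2% and 85.6% in CKO zygotes (edgeR adjusted p = 0.0414). WT blastocysts were above CKO there, at 73.3% and 63.5%. Tile chr8:35422701-35422800 had 37.9% and 34.1% in CKO blastocysts against 92.1% and 96.7% in CKO zygotes (edgeR adjusted p = 0.0218), and its WT levels were 58.6% and 61.4% in blastocysts and 33.3% and 65.2% in zygotes. At these last tiles CKO blastocysts were the lower group, opposite to the mean of the class.

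Some CpG-dense tiles kept high methylation in every blastocyst library. The highest minimum was at chr12:110764901-110765000, with 80.0% and 74.6% in CKO and 76.9% and 93.3% in WT blastocysts. It had 100% and 91.0% in CKO and 91.3% and 100% in WT zygotes, and 95.6% and 97.0% in sperm, so the genotypes overlapped at both stages. By general knowledge of build mm9 it lies between Dlk1 and Meg3, an interval whose imprinting control region is methylated on the paternal copy. No annotation was at hand to check this, or whether the tile falls within that control region. Windows drawn in the same way around the paternally methylated control regions of H19 and Rasgrf1 held none of the 146 tiles.

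Next in order came chr12:79060001-79060100, with 55.8% and 69.6% in CKO and 64.3% and 90.7% in WT blastocysts, then chr19:56252001-56252100, chr18:83398801-83398900 and chr7:29677701-29677800. The last 3 had minima of 49.6%, 48.2% and 47.3% over the blastocyst libraries. The genotypes overlapped at all 5 of these tiles, which were picked for high values in the libraries of both genotypes.

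At the other end, the 5 tiles with the lowest maximum stayed at 20.5% or less in every blastocyst library. Tile chr1:88985401-88985500 had 7.14% and 0% of 27 counts in CKO blastocysts, and 0% of 8 and 0% of 35 counts in WT, with 2 counts at the deepest position behind the first WT value. Tile chr5:143193601-143193700 had 15.0% and 8.89% in CKO blastocysts, against 0% of 48 and 0% of 54 counts in WT, where 16 and 18 counts at the deepest position allow up to 18.8% and 16.7%. The remaining ones were chr7:27973801-27973900, chr7:106206001-106206100 and the tile on chromosome 10 already described. Zeros at the first of these came from 3 counts at the deepest position in CKO and 2 in WT, and at the chromosome 10 tile from 5 and 4, which allow up to 60% and 75%. The maximum of 20.5% is thus the measured value and for several libraries sets no useful limit. In sperm these 5 tiles ranged from 80.0% to 99.3%, which overlaps the sperm range of the tiles that stayed high.

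The 5 covered tiles with the highest minimum over the 4 zygote libraries were at 91.7% or more in each. Tile chr18:83398801-83398900 had 97.4% and 100% in CKO and 100% and 98.4% in WT zygotes, above its 90% and 82.4% in sperm. The others were chr4:19223901-19224000, chr1:180064601-180064700, chr5:133768601-133768700 and the called tile on chromosome 17. In blastocysts chr1:180064601-180064700 had 64.0% and 75.4% in CKO against 50.0% and 25% in WT, and its groups were apart.

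The 5 tiles with the lowest maximum in zygotes were already intermediate there. Tile chr1:93514901-93515000 had 36.9% and 46.7% in CKO and 51.1% and 42.1% in WT zygotes, then 72.0% and 44.3% in CKO and 77.6% and 44.5% in WT blastocysts, where both means were above those of zygotes. Tile chr16:91593301-91593400 had 38.3% and 55.1% in CKO and 51.2% and 55.8% in WT zygotes, then 51.1% and 25.5% in CKO against 12.2% and 8.00% in WT blastocysts. The others were chr10:69772101-69772200, chr15:92330801-92330900 and chr17:26161701-26161800. In blastocysts the CKO libraries lay above the WT libraries at 3 of these 5, on chromosomes 10, 16 and 17. This held at 35.3% of the 102 tiles, 26.5% of the sparser and 13.1% of all tiles, and 5 tiles are too few to set against these shares.

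Replicates of single tiles differed widely. The root mean square difference between the replicates of a group was 30.2 points in CKO zygotes, 28.1 in WT zygotes, 32.3 in CKO blastocysts and 28.8 in WT blastocysts, against 19.3, 19.9, 23.3 and 20.3 points from counting alone at the deepest position. In sperm it was 4.11 points, against 7.77 from counting. Across tiles, Pearson's r between replicates was 0.201, 0.365, 0.159 and 0.363 in the same order of embryo groups and 0.771 in sperm. This is a description over 102 tiles that share their libraries. Between 7 and 9 tiles per embryo group had replicates over 50 points apart. Single tiles were thus measured far less precisely than the mean over them.

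Sperm levels near the threshold show where the class ends. Just inside were chr15:80189301-80189400, chr7:106206001-106206100 and chr8:111417701-111417800, each at 80.0% in the lower sperm library. Just outside were chr11:79832301-79832400 at 79.8%, chr7:26127501-26127600 at 79.7% and chr6:117224601-117224700 at 79.3%. In all, 30 of the 146 tiles had a lower sperm value from 80% to under 85%, and 14 dense tiles had one from 75% to under 80%. Tiles with a mean sperm level under 90% (30 of the 102) averaged 63.7% in CKO and 54.0% in WT zygotes, and 35.7% in CKO and 26.1% in WT blastocysts. The 72 tiles at 90% or more averaged 74.1% and 68.6%, and 48.4% and 34.2%. CKO was above WT in both subsets at both stages.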

How the data were processed

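Each deposited table lists, per cytosine position, the percent methylation that the authors computed and the deposited methylated and unmethylated read counts behind it. Recomputed percentages equalled the deposited percent values within 0.001 points at 100% of positions. Bismark 0.10.1 and Trim Galore, with build mm9, appear in the submitters' processing notes, without settings. Positions are counted from 1.

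Counts were summed over 100-bp tiles and tile means were compared between libraries by exact permutation tests. All autosomal tiles with at least 10 counts in each of the 8 embryo libraries (7546) entered a fit with edgeR 4.0.16 in R 4.3.3, with a quasi-likelihood F-test, negative binomial dispersion 0, a term for the depth of each library and adjustment by Benjamini-Hochberg at 0.05. Limma 3.58.1 was run on log odds with a pseudocount of 0.5. The tiles, the comparison classes and the dispersion setting were chosen with earlier results of these data known. Dispersion 0 followed earlier work on these data in which a common dispersion called no tile. Here the quasi-likelihood test with a common dispersion called 0 of the 7546 tiles in every comparison.

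Tiles were named by rule: per genotype comparison the 5 with the widest non-overlapping difference and the 2 with the smallest p, the 5 with the highest minimum and the 5 with the lowest maximum at each stage, tiles at the sperm threshold, and tiles in windows around paternally methylated imprints. Tiles called between stages were named too. The labels call the replicates biological duplicates. P-values of the permutation tests come from reassigning these libraries between groups. With 2 against 2 libraries that do not overlap, the permutation p is 0.3333 whatever the spread between replicates. P-values of edgeR and limma use a spread that is partly shared over all tiles in the fit, and a read counts at each position it spans. A tile can therefore be called although its replicates are far apart. Reads carry no molecular identifiers, so upper limits for a share of 0 (3 counts over the deepest position) cover counting error only. Alternatives were the count minimum, the tile grid, the sperm and position thresholds, pooled counts, merged tiles, each library left out, a replicate block and other tests.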

Additional observations from a re-analysis of the deposited data

Results flagged for a closer look

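The genotype difference of the CpG-dense tiles relative to the sparser sperm-methylated tiles had opposite signs at the 2 stages. It was 4.00 points in blastocysts and -5.71 points in zygotes, a change of 9.71 points with an SE of 1.79. Each CKO blastocyst library exceeded each WT blastocyst library in the excess over sparser tiles, and each CKO zygote library was below each WT zygote library. No permutation test of this change was made.

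At 3 tiles, the groups were apart in opposite directions at the 2 stages. CKO was apart and higher at 19.6% of the 102 tiles in zygotes and lower at 4.90%, and in blastocysts at 35.3% and 6.86%. Some tiles would thus be apart in opposite directions by coincidence. Such tiles were not counted among the sparser or all tiles, so the 3 are not read as an excess. Tile chr1:92231701-92231800 had 41.3% and 84.6% in CKO against 14.6% and 20.0% in WT blastocysts, and 59.2% and 88.7% in CKO against 100% and 90.5% in WT zygotes, so its genotype difference changed by 66.9 points (edgeR unadjusted p = 0.04631, adjusted p = 1). The first WT zygote library had 3 counts at its deepest position. Tile chr13:56384801-56384900 had 43.6% and 38.7% in CKO against 85.3% and 46.5% in WT blastocysts, and 78.5% and 66.0% in CKO against 44.4% and 60% in WT zygotes, a change of -44.8 points (edgeR unadjusted p = 0.04655, adjusted p = 1). Tile chr8:35422701-35422800 changed by -69.1 points (edgeR unadjusted p = 0.0009557, adjusted p = 1), with the values given above. None of these changes passed the adjustment over all 7546 tiles. The first 2 of these tiles were named after their values were seen.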

How the results depend on the processing

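Under the alternatives tried, 303 of 330 recomputed comparisons of means, shares and call counts kept their direction and size, 24 moved and 3 reversed. The 303 include call counts between genotypes, which were 0 under every alternative. They also include the replicate block, which leaves a mean difference unchanged by construction. Counts of tiles called between stages often moved, as given below. The mean differences between genotypes and between stages kept their sign under every alternative run. The larger genotype difference in blastocysts was 6.12 points as reported, 1.76 with each library over its own tiles, -0.572 with the tile grid shifted by 50 bp, and 2.80 and 9.34 with at least 5 or 10 counts at the deepest position, a filter chosen after seeing the data. Relative to the sparser tiles, the change of 9.71 points became 5.21, 2.95 and 5.91 in the first 3 of these settings. With 6 or more distinct sites after merging adjacent positions, also chosen after seeing the data, the genotype differences were 8.25 points in zygotes and 15.3 in blastocysts over 38 tiles. The genotype difference in the share of zygote tiles at 20% or less was -0.980 points, with a range of -12.6 (shifted grid) to 2.38 (sperm at 90% or more), and 0.980 without CKO zygote replicate 1. In blastocysts that share differed by -36.1 to -14.3 points, and the share at 80% or more by 6.58 to 16.7 in zygotes and 0 to 6.52 in blastocysts. Tiles called lower in WT blastocysts numbered 6 as reported, 3 with at least 1 count in each library, 0 with a common dispersion, 0 with limma and 1 with the replicate block. In CKO they numbered 4, then 1, 0, 0 and 0 in the same settings, and 2 with edgeR's likelihood ratio test.

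With each library left out in turn, the genotype difference was 5.55 to 8.38 points in zygotes, 11.3 to 14.8 in blastocysts and 9.01 to 10.8 averaged, and its change between stages 4.56 to 8.09. Relative to the sparser tiles it was -7.01 to -4.19 in zygotes and 2.77 to 5.98 in blastocysts, with a change of 7.93 to 11.6. The stage difference was -32.8 to -30.8 in WT and -27.4 to -24.7 in CKO. The difference in the share at 20% or less was -5.19 to 0.980 points in zygotes and -23.3 to -21.0 in blastocysts, and at 80% or more 9.72 to 13.2 and 0 to 4.67. Called tiles ranged from 0 to 6 in each genotype's stage comparison and stayed at 0 between genotypes. Among the named tiles, 136 of 224 recomputed values counted as unchanged, 87 no longer passed as calls between stages and 1 reversed. The 136 include values of named tiles that were not called, so they do not give the share of calls that held. They also include the replicate block, which leaves the genotype difference of a named tile unchanged by construction. The calls were often lost, as the counts of called tiles above show. The reversal was at chr4:117357601-117357700 without WT zygote replicate 1. Its log2 odds ratio of WT blastocysts over zygotes was 3.94 there, and -5.89 to 3.94 over the libraries left out. The cause of these changes was not tested. Correlations of the deviations of same-numbered replicates were 0.0021 to 0.0196 over all tiles. Over the CpG-dense tiles they were 0.104 between the zygote groups, -0.119 between the blastocyst groups, -0.0743 between the CKO stages and -0.0027 between the WT stages, so the numbers were not taken to pair the samples. The labels do not say that the number marks a pairing. With the replicate block, CpG-dense tiles called lower in blastocysts went from 6 to 1 in WT and from 4 to 0 in CKO. Calls of these tiles between genotypes stayed at 0. By construction the block leaves the mean differences as they were, at 6.74 points in zygotes (SD 2.26) and 12.9 in blastocysts (SD 0.647). A tile value from fewer than 5 counts at the deepest position carries little weight.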
